A study of Mus musculus with 2 samples.

Results

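Matrix proteases and their inhibitors were followed in total RNA from mouse gastrocnemius, the large fast muscle of the calf. The members are the genes with a protein-coding transcript whose symbol is Mmp or Timp followed by a digit, or begins with Adamts. The rule found 51 genes among the 55536 genes measured, of which 21901 had a protein-coding transcript. They comprise 4 tissue inhibitors of metalloproteinases (TIMPs), 16 secreted and 7 membrane-type matrix metalloproteinases (MMPs), 19 ADAMTS proteases and 5 ADAMTS-like genes. The samples form 1 group of 2 libraries, replicate 2 and replicate 1, from female B6CASTF1/J mice aged 18 to 20 months per the labels. These are F1 hybrids of a C57BL/6J and a CAST/EiJ parent, with no transgene and no treatment named. Input was 300 ng of RNA per library, to which ERCC spike-ins, synthetic RNAs of known amount, had been added. The tissue samples have different identifiers but a donor label that names only the strain, so that the labels' replicate numbers are the sole evidence of separate animals. No other age, sex or genotype was analysed here, and the design allows the level of each gene and the difference between replicates to be described. A ratio of replicate 2 over replicate 1 sets 1 library against 1 library, so differences are described without a test.

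MMPs and ADAMTS proteases are zinc enzymes that cut the proteins around cells. Most are made as inactive precursors, and in most MMPs a cysteine in the propeptide blocks the zinc until it is removed. TIMPs bind with their amino-terminal end in the active site of these enzymes. The ADAMTS-like proteins share the accessory domains of ADAMTS proteases but have no protease domain, and several bind fibrillin microfibrils. In skeletal muscle these genes are known from the connective tissue between the fibres, from repair after injury and from the release of the stem cells that rest beside the fibres.

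Replicate 2 held 43722892 gene counts and replicate 1 held 38654555, so that a gene with no count can have had up to 0.0686 and 0.0776 CPM (3 counts, as counts scaled to library size). That limit covers counting error only. All 8 muscle fibre markers, which include Acta1 and Ttn of every fibre type and the fast myosin Myh4, were present, with summed levels of 91790 TPM in replicate 2 and 96590 TPM in replicate 1, where TPM is a level corrected for transcript length and library size. The 6 slow fibre markers differed between the libraries, with 1956 TPM in replicate 2 and 352.5 TPM in replicate 1. In bulk tissue, fewer cells of a type and less RNA per cell cannot be told apart.

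The catalytic sequences are what the ADAMTS-like genes lack, and are shown for the 2 main membrane-type MMPs, for Mmp3 from the chromosome 9 cluster, and for 3 ADAMTS genes with high levels or wide differences. In the mm10 genome all 16 secreted and all 7 membrane-type MMPs and all 19 ADAMTS genes encoded the zinc-binding motif, a histidine, glutamate, any 2 residues, histidine, any 5 residues and a further histidine. None of the 5 ADAMTS-like genes did. The pattern for the motif had been loosened after a known protease was missed, so the full count of proteases partly follows from the choice of pattern. The motif's 33 coding bases are given with the 3 histidine codons in capitals, Mmp14 at chr14:54437627-54437659 and Mmp15 at chr8:95368585-95368617 (mm10, plus strand, exon 5 of 10 in each). Mmp3 lies at chr9:7449775-7449807 (plus strand, exon 5 of 10). In the 3 ADAMTS genes the motif is split over 2 exons, in Adamts1 exons 3 and 4 of 9 (chr16:85799191-85799545, minus strand), in Adamts2 exons 7 and 8 of 22 (chr11:50775403-50776134, plus strand) and in Adamts14 exons 7 and 8 of 22 (chr10:61225465-61227123, minus strand).
Mmp14: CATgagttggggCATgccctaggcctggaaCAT
Mmp15: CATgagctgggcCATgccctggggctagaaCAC
Mmp3: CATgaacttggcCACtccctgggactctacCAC
Adamts1: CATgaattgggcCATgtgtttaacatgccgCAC
Adamts2: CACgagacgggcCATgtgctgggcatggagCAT
Adamts14: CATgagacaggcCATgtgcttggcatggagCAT
Adamts14 and Adamts2 matched at 30 of the 33 bases, and Mmp14 and Mmp15 at 27. Only genes with a RefSeq promoter window, described below, were compared, which left out Mmp2 and Mmp9 among others. Among the stretches compared, pairs of MMPs matched at 18 to 30 bases (median 24, 153 pairs) and pairs of ADAMTS genes at 16 to 30 (median 21, 45 pairs). An MMP with an ADAMTS gene matched at 16 to 25 (median 20, 180 pairs). The motif fixes its histidines and glutamate in every stretch, which sets a floor under these matches. For the propeptide cysteine a strict pattern was searched (proline, arginine, cysteine, glycine, valine or asparagine, proline, aspartate). It was found in 13 of 16 secreted and 4 of 7 membrane-type MMPs. Variants were not searched, so an MMP without a match can still have the cysteine.

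The start of the mature inhibitor is shown because it is the part that enters the protease. The 27 coding bases begin with the amino-terminal cysteine, and the codons of the leading pair of cysteines are in capitals. In mm10, Timp2 lies at chr11:118354986-118355012 (minus strand, exon 1 of 5), Timp3 at chr10:86300923-86300949 (plus strand, exon 1 of 5), Timp4 at chr6:115251665-115251691 (minus strand, exon 1 of 5) and Timp1 at chrX:20871111-20871137 (plus strand, exon 2 of 6).
Timp2: TGCagcTGCtccccggtgcacccgcaa
Timp3: TGCacaTGCtctcccagccatccccag
Timp4: TGCagcTGTgcgcctgcgcacccccag
Timp1: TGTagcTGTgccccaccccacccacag
The 6 pairs matched at 16 to 21 of 27 bases, with a median of 17.5.

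In summed TPM, TIMP genes outweighed the MMP and ADAMTS protease genes in both libraries of aged muscle. These are RNA levels, and neither protein nor protease activity was measured. Of the 51 genes, 18 reached 1 TPM in both libraries (35.3%, against 45.7% of all genes with a protein-coding transcript, 10002 of 21901), and 8 averaged at least 5 TPM. These 8 were, from high to low mean level, Timp2, Timp3, Mmp2, Adamtsl5, Adamtsl4, Mmp15, Timp4 and Adamts1. A further 13 genes averaged between 0.1 and 1 TPM and 19 less than 0.1 TPM, and 7 of these had no count in either library. All members summed to 148 TPM in replicate 2 and 138.9 TPM in replicate 1, or 0.0148% and 0.0139% of the TPM total. The TIMPs held 43.0% of that sum in replicate 2 and 47.6% in replicate 1, the largest share of the 5 classes in both. ADAMTS-like genes held 23.2% and 13.7%, secreted MMPs 14.1% and 13.7%, ADAMTS proteases 12.3% and 16.1%, and membrane-type MMPs 7.45% and 9.07%, in replicate 2 and replicate 1. The ADAMTS-like share was the one that differed most between the libraries. Summed TIMP TPM was 1.27 times that of all MMP and ADAMTS proteases in replicate 2 and 1.23 times in replicate 1.

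**Figure D1:**
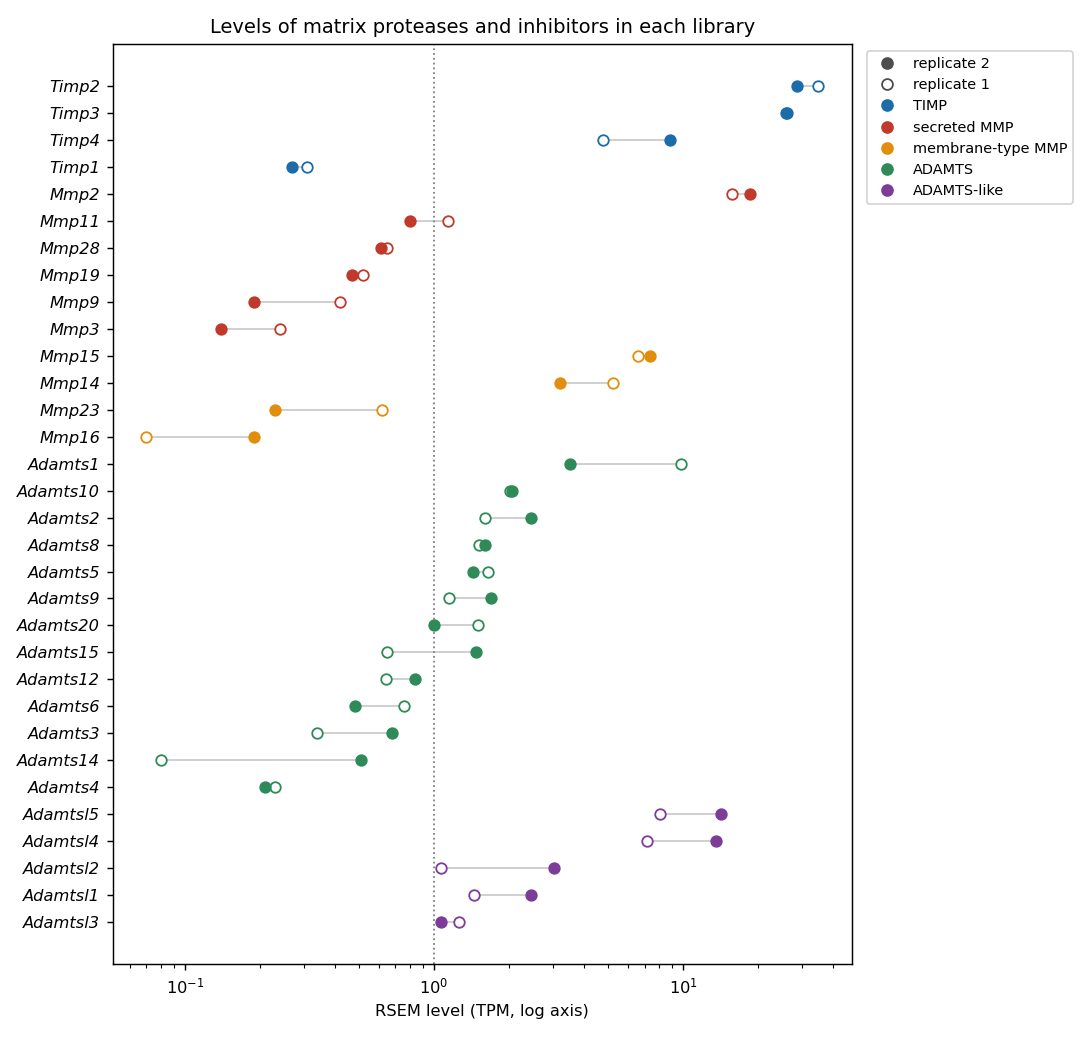
Level of each member with a mean of at least 0.1 TPM (x axis, TPM, log scale), with replicate 2 filled and replicate 1 open, coloured by class; the dotted line marks 1 TPM. Timp2, Timp3 and Mmp2 lie farthest right in both libraries, and Adamts1 and Adamts14 have the widest gaps between the libraries among the ADAMTS proteases.

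Differences between the libraries are given as the log2 ratio of replicate 2 over replicate 1, from counts scaled by the TMM method, so they need not equal the ratio of the TPM values, which also depend on transcript length and on the rest of the library. Ratios were made for genes with at least 50 counts over both libraries. The 95% interval of a fold covers counting error alone and leaves out the spread between animals, and without molecular identifiers reads cannot be equated with molecules. Of the 51 members, 27 passed this count minimum and 24 did not, none of the 24 with over 23 counts in a library. Members at least 2-fold apart numbered 4 higher (Adamtsl4, Adamtsl2, Adamts15 and Adamts14) and 2 lower (Adamts1 and Adamts6) in replicate 2. Over all 12969 genes tested, 2.7% were at least 2-fold higher and 1.94% at least 2-fold lower, 4.64% in either direction. The median log2 ratio was 0.23 over the 27 members and 0.00 over all tested genes. Of the members 16 were above 0 and 11 below, and of all tested genes 49.8% were above 0. Scaling by the spike-ins moved the median of all genes to -0.22 and that of the members to 0.01. The median distance from 0 was 0.59 for members and 0.20 for all tested genes. The tested genes were not matched to the members for count, and counting error widens the ratios of genes with few counts. The same 6 members were past 2-fold with spike-in scaling, where 1.88% of all tested genes were higher and 3.39% lower, and by kallisto counts, where the shares were 2.66% and 1.99% of 13406 genes. Differences under 1.5-fold were found for 13 of the 27 members and for 86.3% of all tested genes. For 19 of the 27 the counting interval of the fold, with TMM scaling, excluded equality. The share of all tested genes for which this held was not computed, so the count has no background.

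**Figure D2:**
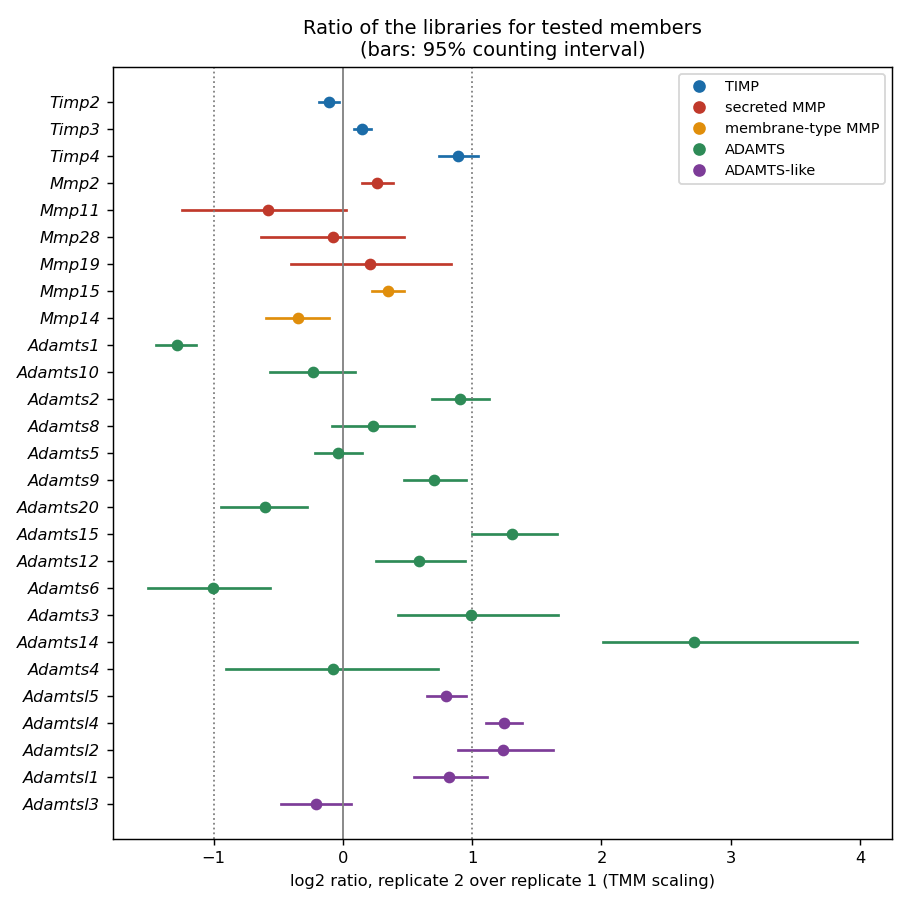
Log2 ratio of replicate 2 over replicate 1 for the 27 members with at least 50 counts (x axis), with bars for the 95% counting interval and dotted lines at 2-fold in either direction. No TIMP or MMP lies past a dotted line, while Adamts14, Adamts15, Adamtsl4 and Adamtsl2 lie right of it and Adamts1 and Adamts6 left of it.

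Timp2, Timp3 and Timp4 were well expressed and Timp1 was barely present. Timp2, which blocks most MMPs and also helps Mmp14 to activate the precursor of Mmp2, had 28.7 TPM in replicate 2 and 34.9 TPM in replicate 1 (mean 31.8 ± 4.41, SD, n = 2). Its counts of 2651 in replicate 2 and 2797 in replicate 1 gave a log2 ratio of -0.11, or 1.08-fold lower in replicate 2 (1.02 to 1.14). Only 7.85% of genes with a protein-coding transcript had a higher mean level. Timp3, which binds to the matrix and also inhibits ADAMTS proteases and the sheddase Adam17, had 25.9 TPM in replicate 2 and 26.1 TPM in replicate 1. Its log2 ratio of 0.15 turned to -0.07 when the spike-ins set the scale, so no direction is given for Timp3. Timp4, an inhibitor known from heart, muscle and fat, had 8.82 TPM in replicate 2 and 4.77 TPM in replicate 1. With 1041 counts in replicate 2 and 550 in replicate 1 it was 1.85-fold higher in replicate 2 (1.67 to 2.06), inside the 2-fold limit. Timp1, the inhibitor that is induced in injury and inflammation, had 0.27 TPM in replicate 2 and 0.31 TPM in replicate 1, from 7 counts in each. Timp1, Timp3 and Timp4 each lie within a synapsin gene on the other strand (Syn1, Syn3 and Syn2), and those hosts stayed at or below 0.31 TPM in both libraries.

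Secreted MMPs were represented almost entirely by Mmp2. Mmp2 (gelatinase A, which cuts denatured collagen and basement membrane collagen) had 18.5 TPM in replicate 2 and 15.8 TPM in replicate 1 (mean 17.1 ± 1.94, SD, n = 2). Its 1244 counts in replicate 2 and 1014 in replicate 1 gave a log2 ratio of 0.26, or 1.20-fold higher in replicate 2 (1.10 to 1.31). With spike-in scaling the log2 ratio of Mmp2 was 0.04, so this small difference depended on the scaling. The other gelatinase, Mmp9, known from neutrophils and macrophages, had 0.19 TPM in replicate 2 and 0.42 TPM in replicate 1, from 14 and 23 counts, and by kallisto 0.51 and 1.41 TPM. The 2 gelatinases together made 18.7 TPM in replicate 2 and 16.2 TPM in replicate 1, while the 4 collagenases (Mmp8, Mmp13, Mmp1a and Mmp1b) made 0 and 0.01 TPM. Mmp11 (stromelysin-3) had 0.80 TPM in replicate 2 and 1.14 TPM in replicate 1, with a counting interval that included equality. Mmp11 overlaps Chchd10, on the other strand and far more abundant (622 TPM in replicate 2 and 469 TPM in replicate 1), and since the use of strand in counting is not stated its level is uncertain. Mmp28 (epilysin) had 0.61 TPM in replicate 2 and 0.65 TPM in replicate 1. The other secreted MMPs stayed under 0.6 TPM, and Mmp7, Mmp10, Mmp13, Mmp21, Mmp1a and Mmp1b had no counts. Of the 8 neutrophil markers, 5 (Ly6g, Cxcr2, Ngp, Camp and Mpo) had no RSEM counts either, and the list summed to 0.07 TPM in replicate 2 and 0.33 TPM in replicate 1. Kallisto gave Cxcr2 alone 0.329 TPM in replicate 2 and 0.53 TPM in replicate 1.

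Of the 6 MMP genes with no counts, 5 sit in a single cluster whose other genes had few. At chr9:7272514-7699585 (mm10) lie 10 MMP genes, in order Mmp13, Mmp12, Mmp1b, Mmp3, Mmp1a, Mmp10, Mmp8, Mmp27, Mmp20 and Mmp7, which encode collagenases, stromelysins, macrophage elastase, enamelysin and matrilysin. Together they had 15 counts (0.25 TPM) in replicate 2 and 24 counts (0.45 TPM) in replicate 1, and 5 of them had none. The highest of them was Mmp3 (stromelysin-1), with 0.14 TPM from 8 counts in replicate 2 and 0.24 TPM from 12 counts in replicate 1. The other 13 MMP genes, elsewhere in the genome, include every MMP above 0.3 TPM. RefSeq's GRCm38.p6 promoter windows were matched for 36 of the 51 members (39 windows), and the 250 bases before each start were searched on both strands for 3 motifs. The AP-1 letters were TGANTCA. The GC box was GGGCGG. The TATA box was TATAAA. Among the 10 cluster genes 8 held the AP-1 letters, 7 the TATA letters and 0 the GC box, and their windows held 37.2% to 53.2% G and C (median 40.2%, 12 windows). Mmp12 is among the 8 only through a further window, 2977 bases from the start of its top transcript. Its window at that start had no AP-1 letters. The 53.2% likewise came from a further window of Mmp7, 251 bases from its transcript start. Among the 26 members matched elsewhere 0 held the AP-1 letters, 3 the TATA letters and 20 the GC box, with 53.6% to 80% G and C (median 64.4%, 27 windows). In all 32851 promoters these letters were found in 6.75% (AP-1), 12.4% (TATA box) and 32.7% (GC box), with a median of 52.4% G and C. Clustered genes are related copies, so their windows are not independent, and a match is a description of the letters and no evidence of binding.

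**Figure D3:**
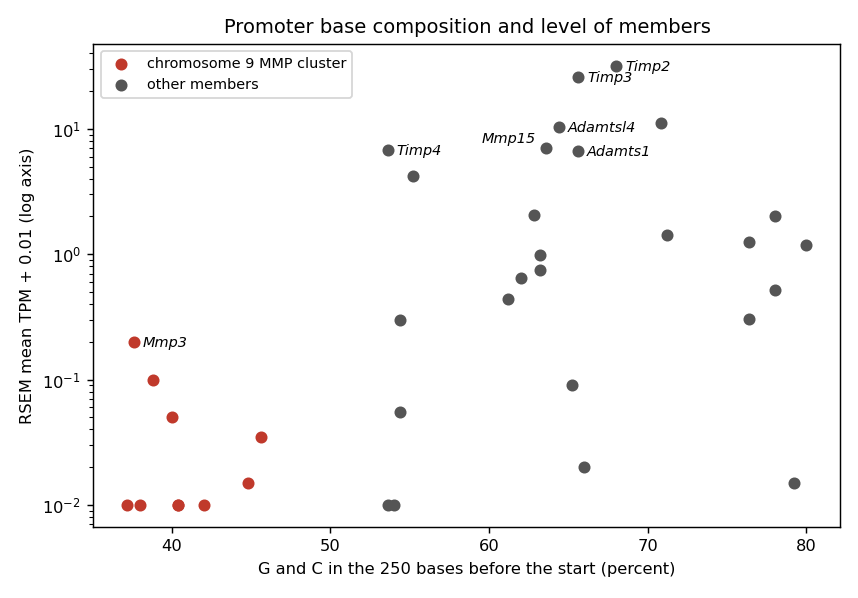
Percent of G and C in the 250 bases before the start (x axis) against mean level (y axis, TPM plus 0.01, log scale) for the 36 members with a promoter window, cluster genes in red and others in grey. All cluster genes lie at the lower left, under 0.3 TPM, whereas the other members range from no counts to Timp2.

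The promoter of Mmp3 (chr9:7445572-7445821, GRCm38.p6, plus strand) is shown as an example from the cluster, beside those of Adamts1 (chr16:85803114-85803363, minus strand) and Adamtsl4 (chr3:95687918-95688167, minus strand), 2 well expressed members that differed between the libraries in opposite directions. Capitals mark the matches. Mmp3 held AP-1 letters that start 46 bases before the transcript start and a TATA box 7 bases before it. Adamts1 held 3 GC boxes and a TATA box that starts 32 bases before the transcript start, next to the nearest GC box, which starts 25 bases before it. Adamtsl4 held 2 GC boxes.
Mmp3: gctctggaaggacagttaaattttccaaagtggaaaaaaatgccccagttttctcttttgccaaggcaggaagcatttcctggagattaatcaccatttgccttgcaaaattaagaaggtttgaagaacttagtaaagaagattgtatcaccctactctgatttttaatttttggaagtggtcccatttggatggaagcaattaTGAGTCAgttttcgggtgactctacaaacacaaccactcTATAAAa
Adamts1: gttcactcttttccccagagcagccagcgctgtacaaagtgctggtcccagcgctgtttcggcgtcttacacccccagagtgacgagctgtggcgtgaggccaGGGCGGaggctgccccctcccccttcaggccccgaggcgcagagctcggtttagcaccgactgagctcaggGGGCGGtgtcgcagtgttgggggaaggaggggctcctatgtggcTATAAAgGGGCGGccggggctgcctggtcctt
Adamtsl4: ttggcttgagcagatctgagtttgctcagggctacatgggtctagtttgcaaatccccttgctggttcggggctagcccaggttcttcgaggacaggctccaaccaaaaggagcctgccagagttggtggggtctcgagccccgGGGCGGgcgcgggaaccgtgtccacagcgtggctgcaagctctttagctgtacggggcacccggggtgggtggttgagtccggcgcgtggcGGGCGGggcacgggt

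Membrane-type MMPs, which act at the cell surface, were carried by Mmp15 and Mmp14. Mmp15 (MT2-MMP) had 7.36 TPM in replicate 2 and 6.57 TPM in replicate 1, and its 1195 and 919 counts put it 1.27-fold higher in replicate 2 (1.17 to 1.39). The log2 ratio of Mmp15 was 0.35 with TMM scaling and 0.13 with spike-in scaling. Mmp14 (MT1-MMP), a collagenase of the cell surface and the main activator of Mmp2, had 3.19 TPM in replicate 2 and 5.24 TPM in replicate 1. From 256 counts in replicate 2 and 320 in replicate 1 it was 1.28-fold lower in replicate 2 (1.08 to 1.51). The Mmp14 and Mmp15 ratios thus had opposite signs, both inside the 2-fold limit. Mmp23 had 0.23 TPM in replicate 2 and 0.62 TPM in replicate 1, from 9 and 15 counts. The GPI-anchored Mmp17 and Mmp25 together reached 0.05 TPM in replicate 2 and 0.10 TPM in replicate 1, Mmp16 had 13 and 8 counts, and Mmp24 had 1 and 0. The known activation set of Mmp2, formed by Mmp14, Timp2 and Mmp2 itself, was present at 3.19, 28.7 and 18.5 TPM in replicate 2 and at 5.24, 34.9 and 15.8 TPM in replicate 1.

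The ADAMTS proteases held 4 of the 6 differences past 2-fold. The largest group by level were the 7 proteoglycanases, which cut versican, aggrecan and related molecules, with 10.9 TPM in replicate 2 and 16.5 TPM in replicate 1. Adamts1, the most abundant of them and known for cleaving versican, had 3.50 TPM in replicate 2 and 9.80 TPM in replicate 1. Its 500 counts in replicate 2 and 1197 in replicate 1 gave a log2 ratio of -1.29, or 2.44-fold lower in replicate 2 (2.20 to 2.72). Adamts15, another versican-cleaving enzyme, went the opposite way, with 1.47 TPM and 276 counts in replicate 2 and 0.65 TPM and 108 counts in replicate 1. It was 2.50-fold higher in replicate 2 (2.00 to 3.16). Adamts1 and Adamts15 have close neighbours that stayed inside the 2-fold limit. On chromosome 16, Adamts5 lies 53060 bases from Adamts1 and had 1.44 TPM in replicate 2 and 1.64 TPM in replicate 1, with a log2 ratio of -0.04 that was 0.02 by kallisto. On chromosome 9, Adamts8 lies 20110 bases from Adamts15 and had 1.60 TPM in replicate 2 and 1.51 TPM in replicate 1 (log2 ratio 0.23). Of the remaining proteoglycanases, Adamts9 had a log2 ratio of 0.71 and Adamts20 one of -0.60.

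All 3 procollagen N-propeptidases, which trim the amino-terminal end of fibrillar procollagens, had log2 ratios above 0, and 1 of them, Adamts14, was past 2-fold. Adamts2 had 2.45 TPM in replicate 2 and 1.60 TPM in replicate 1, and 496 against 259 counts put it 1.88-fold higher in replicate 2 (1.61 to 2.19). Adamts2 overlaps an antisense gene, Gm12199, with 6.13 TPM in replicate 2 and 3.47 TPM in replicate 1, and if strand was not used in counting, the reads of the 2 genes cannot be told apart. Adamts3 had 0.68 TPM and 71 counts in replicate 2 and 0.34 TPM and 34 counts in replicate 1, a log2 ratio of 0.99, just inside the 2-fold limit. The fold of its counts, with no prior count added, was 2.05 (1.34 to 3.18), and with no count minimum its log2 ratio was past the limit. Adamts14 had 0.51 TPM and 85 counts in replicate 2 and 0.08 TPM and 11 counts in replicate 1. It was 7.57-fold higher in replicate 2 (4.02 to 15.7), the widest gap of the 27 members, and it passed the count minimum only through replicate 2. Together the 3 made 3.64 TPM in replicate 2 and 2.02 TPM in replicate 1.

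Among the remaining ADAMTS genes Adamts10, a protease tied to fibrillin microfibrils, had 2.06 TPM in replicate 2 and 2.01 TPM in replicate 1. Its 144 and 166 counts left an interval that included equality. The related Adamts6 had 0.48 TPM and 59 counts in replicate 2 and 0.76 TPM and 118 counts in replicate 1. At 2.04-fold lower in replicate 2 (1.48 to 2.84; log2 ratio -1.01) it lay on the limit, and it fell inside it with another count minimum or prior count. Adamts12, which cleaves the cartilage protein Comp, had 181 and 117 counts in replicate 2 and replicate 1, a log2 ratio of 0.59. Adamts13, the liver-made protease of von Willebrand factor, had no counts, and Adamts7, Adamts16, Adamts17, Adamts18 and Adamts19 stayed at or below 0.15 TPM in both libraries.

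All 5 ADAMTS-like genes reached 1 TPM in both libraries, the one class of which this held, and 4 of the 5 had log2 ratios above 0. Adamtsl5 had 14.2 TPM in replicate 2 and 8.05 TPM in replicate 1, and 962 against 541 counts put it 1.74-fold higher in replicate 2 (1.57 to 1.94). Its protein-coding transcripts were farther apart, with 7.12 TPM in replicate 2 and 2.92 TPM in replicate 1, and 4.43 and 1.91 TPM by kallisto. They made 50% and 36.3% of its TPM by RSEM and 27.2% and 18.8% by kallisto. Adamtsl4, which binds fibrillin-1 and whose human counterpart is known from displaced eye lenses, had 13.5 TPM in replicate 2 and 7.16 TPM in replicate 1. With 1469 and 607 counts it was 2.37-fold higher in replicate 2 (2.16 to 2.61). Adamtsl2, whose human counterpart is known from geleophysic dysplasia, had 3.04 TPM in replicate 2 and 1.07 TPM in replicate 1. Its 217 and 89 counts gave 2.39-fold higher in replicate 2 (1.86 to 3.09). Its protein-coding transcripts were closer, with 1.33 TPM in replicate 2 and 0.75 TPM in replicate 1, while those annotated as retained introns had 1.56 and 0.33 TPM. By kallisto the protein-coding transcripts had 1.81 TPM in replicate 2 and 1.13 TPM in replicate 1, and the retained introns 1.19 and 0.0682 TPM. Adamtsl4 and Adamtsl2 were the 2 ADAMTS-like genes past the limit, with log2 ratios of 1.24 each. Adamtsl1 had a log2 ratio of 0.82, and Adamtsl3 had one of -0.21 with an interval that included equality. Adamtsl2 lies 69751 bases from Adamts13 on chromosome 2, of which no reads were counted.

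Some members with good gene levels were split between annotated transcripts that encode the zinc site or TIMP start and annotated transcripts that do not. Of the 14 TIMP and protease members with a mean of at least 1 TPM, 7 had at least 90% of their RSEM TPM in transcripts that encode the zinc site or the TIMP start in both libraries, namely Adamts1, Adamts15, Adamts5, Adamts8, Mmp15, Timp3 and Timp4. Adamts10 was the farthest from that, with 9.66% in replicate 2 and 20.0% in replicate 1, while transcripts annotated as retained introns took 60.9% and 54.0%. By kallisto its share with the site was 26.1% in replicate 2 and 13.2% in replicate 1, the opposite order, and retained introns took 41.9% and 39.1%. Adamts20 had 49.5% in replicate 2 and 60.3% in replicate 1. For Mmp2, the full-length Mmp2-201 (1986 coding bases) took 61.3% in replicate 2 and 68.2% in replicate 1. Mmp2-203, a 674-base protein-coding transcript without the zinc site (378 coding bases), took 38.7% and 30.8%. Whether such short annotated transcripts are complete was not examined, so a missing site does not show an inactive product. Mmp14 transcripts with the site made 95.6% in replicate 2 and 77.5% in replicate 1. The Mmp14 share was thus lower in replicate 1, the library with the higher Mmp14 level.

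**Figure D4:**
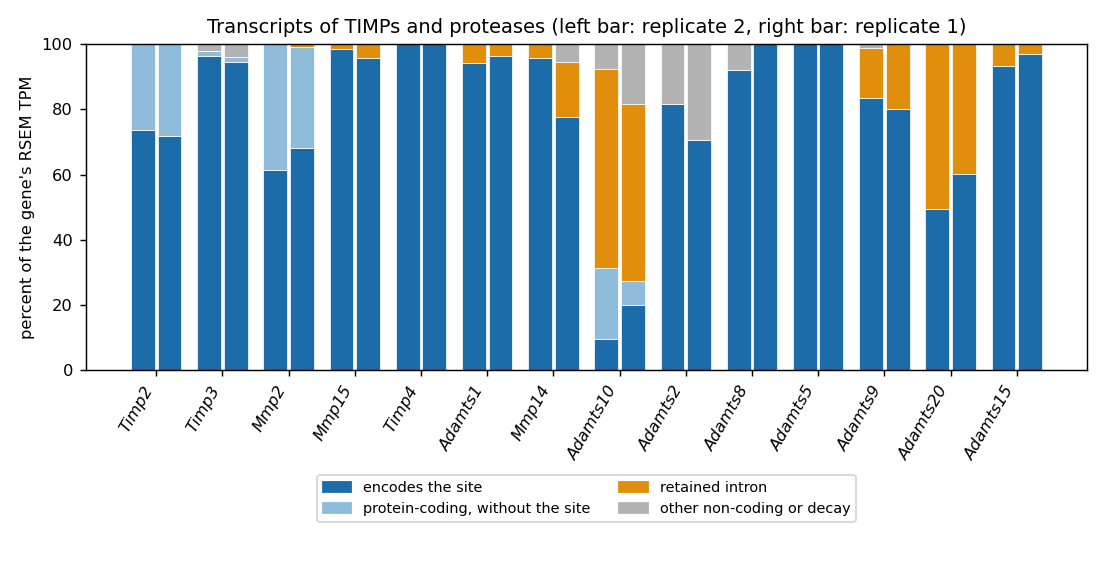
Percent of each gene's RSEM TPM (y axis) by kind of transcript for the 14 TIMPs and proteases with a mean of at least 1 TPM, replicate 2 in the left bar and replicate 1 in the right. Adamts10 is 60.9% and 54.0% retained intron in replicate 2 and replicate 1 by RSEM, and Timp2 and Mmp2 have 26.3% to 38.7% in protein-coding transcripts that lack the site.

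Shares of transcripts depended on the quantifier for several abundant members. Timp2-201, which encodes the inhibitor's start, took 73.7% in replicate 2 and 71.9% in replicate 1 by RSEM, but 51.7% and 47.6% by kallisto. The 718-base Timp2-202 took the rest. It has 430 annotated coding bases against 660 in Timp2-201, and whether it is complete was not examined. Timp4-201 took 60.5% in replicate 2 and 68.8% in replicate 1 by RSEM, and 84.2% and 83.4% by kallisto. Both Timp4 transcripts encode the inhibitor's start. Adamts1-201 took 86.6% in replicate 2 and 80.1% in replicate 1 by RSEM, and 58.6% and 62.4% by kallisto. Adamtsl4-202 took 66.2% in replicate 2 and 48.9% in replicate 1 by RSEM, and 71.9% and 70.9% by kallisto. Adamtsl5-203, annotated as a retained intron, was the top transcript of Adamtsl5, with 32% in replicate 2 and 42.4% in replicate 1 by RSEM and 31.7% and 35.7% by kallisto. Gene levels were closer between the tools. Over 20 members with a mean of at least 1 TPM by either tool, the kallisto level was 1.02 to 1.85 times the RSEM level, and for 10322 genes with a protein-coding transcript the median was 1.34. Timp2 gave the 1.85, with 50.5 TPM in replicate 2 and 67.2 TPM in replicate 1 by kallisto.

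**Figure D5:**
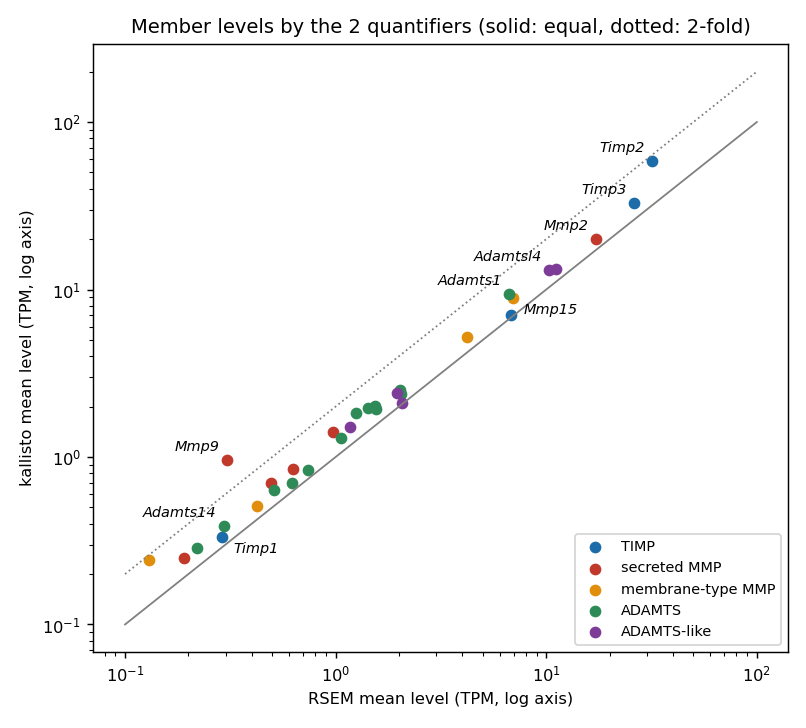
Mean level by RSEM (x axis) against mean level by kallisto (y axis), both in TPM on log scales, for members with a mean of at least 0.1 TPM by RSEM; the solid line marks equality and the dotted line a 2-fold higher kallisto level. Most members lie between the lines, Timp2 lies closest to the dotted line among abundant genes, and Mmp9 lies above it.

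The enzymes, inhibitors and substrates around the members were present too. Of 25 activators and other matrix proteases, 15 reached 1 TPM in both libraries, summing to 271.7 TPM in replicate 2 and 337.7 TPM in replicate 1, above the summed level of all members. The lysosomal cathepsins led this list, Ctsb with 96.3 TPM in replicate 2 and 80.9 TPM in replicate 1, and Ctsl with 54.5 and 103.9 TPM. Htra1, a secreted serine protease, had 18.6 TPM in replicate 2 and 37.8 TPM in replicate 1. Of the 19 tested, 0 were at least 2-fold higher and 1, Ctss, was at least 2-fold lower in replicate 2 (log2 ratio -1.01), and the median log2 ratio was -0.01. Of 17 other inhibitors and clearance receptors 9 reached 1 TPM in both libraries, summing to 385.4 TPM in replicate 2 and 385.6 TPM in replicate 1. Cst3, the cysteine protease inhibitor cystatin C, made most of this, with 261.1 TPM in replicate 2 and 267.1 TPM in replicate 1. Over the 10 tested the median log2 ratio was 0.15.

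Substrates included the genes with the widest differences around the members. Of 25 matrix substrates 18 reached 1 TPM in both libraries, and among the 20 tested 3 were at least 2-fold higher and 1 at least 2-fold lower in replicate 2, with a median log2 ratio of 0.49. The fibrillar collagens Col3a1, Col1a1 and Col1a2 were the 3 higher. Col3a1 had 37.3 TPM in replicate 2 and 12.5 TPM in replicate 1 (3.67-fold higher, 3.47 to 3.87). Col1a1 had 28.3 TPM in replicate 2 and 9.69 TPM in replicate 1 (3.25-fold higher, 3.07 to 3.44). Col1a2 had a log2 ratio of 1.36. Thbs1 (thrombospondin-1, a substrate of Adamts1) was the 1 lower, with 2.66 TPM in replicate 2 and 8.96 TPM in replicate 1, a log2 ratio of -1.57. Substrates and the proteases that cut them had ratios of like sign in some pairs and of opposite sign in others. Col3a1, Col1a1, Col1a2 and the 3 procollagen N-propeptidases had log2 ratios above 0, and those of Thbs1 and Adamts1 were below 0. Vcan (versican) had a log2 ratio of 0.92 against -1.29 for Adamts1, and Comp had -0.69 against 0.59 for Adamts12. Fbn1, the fibrillin that Adamtsl4 binds, had 12.2 TPM in replicate 2 and 7.66 TPM in replicate 1, inside the 2-fold limit. Pairs of genes within a single comparison of 2 libraries do not show that their levels are linked.

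Marker lists of the cells that could carry these transcripts differed less than the slow fibre list. Of 12 fibro-adipogenic markers 11 reached 1 TPM in both libraries, and the list summed to 497.2 TPM in replicate 2 and 492.7 TPM in replicate 1, with a median log2 ratio of 0.17 over 12 tested genes. Col3a1 and Lum were its 2 genes past 2-fold, both higher in replicate 2. The endothelial list summed to 63.4 TPM in replicate 2 and 82.3 TPM in replicate 1 (median log2 ratio -0.44, 8 of 8 detected), and the mural list to 167.5 and 162.8 TPM (median -0.08, 8 of 8 detected). Tendon markers summed to 53.3 TPM in replicate 2 and 83.7 TPM in replicate 1 (median -0.56, 6 of 8 detected). Macrophage markers summed to 30.7 TPM in replicate 2 and 34.7 TPM in replicate 1 (median 0.12, 6 of 8 detected), with Cd68 at least 2-fold lower. Satellite cell markers summed to 47.3 TPM in replicate 2 and 61.4 TPM in replicate 1 (median -0.70, 4 of 7 detected), with Myod1 at least 2-fold lower. Sdc4 held the largest part of that sum (27.4 TPM in replicate 2 and 20.5 TPM in replicate 1), with a log2 ratio of 0.55. Pax7 had 0.49 and 0.94 TPM, Myf5 0.49 and 1.1 TPM, and Vcam1 0.75 and 1.09 TPM in replicate 2 and replicate 1. The sum is therefore no measure of satellite cells. Median log2 ratios were 0.89 for mast cell (2 of 6 detected), 0.34 for adipocyte (5 of 6), -0.28 for Schwann cell (4 of 6) and 0.12 for muscle fibre markers (8 of 8), of which Myh1, a fast myosin, was at least 2-fold higher (log2 ratio 1.38). All 6 slow fibre markers were at least 2-fold higher in replicate 2, with a median log2 ratio of 2.68. The part of these cell types in the members' ratios was not tested. Scaling by the spike-ins, which lowers the log2 ratios by about 0.22, puts the small positive medians of the fibro-adipogenic, macrophage and muscle fibre lists, and of the other inhibitors, below 0.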

How the data were processed

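Total RNA-seq libraries of gastrocnemius from 1 group of 2 biological replicates were used, ribosome-reduced and stranded per the labels' protocols, with the mm10 build and GENCODE M21 annotation named in the labels. Not given in the sources used here are the aligner, the quantifiers' versions and the use of strand in counting. Expected counts and TPM per gene and transcript were deposited by the authors in tables with the column names of RSEM, per the file headers. Estimated counts and TPM per transcript in a further deposited table carry kallisto's column names and were summed per gene here. RSEM's posterior mean TPM, deposited in the same tables, served as an alternative.

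After rounding the expected counts to whole numbers, edgeR 4.0.16 (R 4.3.3) computed TMM factors and log2 CPM with a prior count of 2, for genes whose counts summed to at least 50. Size factors from DESeq2 1.42.0 were an alternative. Spike-in, phiX (0 counts) and tRNA rows (2 counts in replicate 2 and 1 in replicate 1) stayed out. The 95% interval of a fold was derived from the exact binomial interval of replicate 2's share of both counts, divided by the effective library sizes (scipy 1.17.1, Python 3.11.15). The ratio step was tested on simulated data. The depth of both libraries is given above. A level of at least 1 TPM in both libraries counts as detected, and a log2 ratio of at least 1 in size as past 2-fold, with no test.

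Sites were found in coding sequences of the annotated transcripts, and the pattern for the zinc motif was loosened after a known protease had been missed. Promoters came from RefSeq's GRCm38.p6 table. Sequences are shown for some members only, and a few results are not reported here.

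The members, lists and settings were chosen with earlier results of these data known. The rule for named genes took the 3 members of highest mean TPM per class, those with a mean of at least 5 TPM, those past 2-fold, those with no counts, and transcripts of the 6 most abundant members whose top transcript takes under 90%. From each list it took the 3 of highest level and the 3 of largest ratio. Other genes are named for their role or position and were chosen after their values were seen. Alternatives were other scalings (DESeq2 size factors, total counts, spike-in totals), count minimums, prior counts, TPM minimums, kallisto and posterior mean values, and leaving out each library.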

Additional observations from a re-analysis of the deposited data

How the results depend on the processing

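With 1 group of 2 libraries, leaving out a library leaves no ratio, and the levels that remain are those of the other library. No paired analysis was possible because there is only 1 group. Of 112 summary values under alternatives, 97 stayed and 15 moved. Staying meant within the spread of a level or share, within 0.282 of a median log2 ratio, or within 1.5 times a count. For the members' median of 0.23 that limit exceeds the value itself, so a median that stayed can have changed sign. The members' median was -0.015 with no count minimum, 0.012 with spike-in totals and 0.069 with a minimum of 20 counts. With a minimum of 500 counts it was 0.297, and by kallisto counts 0.316. The spread is that of the 2 libraries, so a level or share with 1 library left out lies within it by construction. All 12 summary values and all 18 single-member levels stayed when replicate 1 was left out, and likewise without replicate 2. They are part of the totals given here and are no evidence of stability. Members detected fell to 10 with a minimum of 2 TPM, against 18. Members at least 2-fold higher numbered 1 with a minimum of 500 counts, 5 with a prior count of 0.5 and 6 with no minimum, Adamts3 among these 6, against 4. Members at least 2-fold lower numbered 1 with a minimum of 20 or 500 counts or a prior count of 5 and 5 with no minimum, against 2. Adamts6 had a log2 ratio of -0.999 with a minimum of 20 counts and -0.97 with a prior count of 5. By kallisto the TIMP share was 50.1% (45.3% by RSEM) and the secreted MMP share 12.4% (13.9%), which was 14.3% by posterior mean TPM. Transcript shares by kallisto were 49.7% for Timp2-201, 73.4% for Mmp2-201, 71.4% for Adamtsl4-202, 83.8% for Timp4-201 and 60.5% for Adamts1-201, against 72.8%, 64.8%, 57.5%, 64.7% and 83.4% by RSEM. The Schwann cell median was 0.021 with a minimum of 500 counts, against -0.28. Among 174 values of single members 149 stayed, 24 moved and 1 reversed, the log2 ratio of Timp3, at -0.071 with spike-in totals. The same 6 members were past 2-fold by kallisto counts and with spike-in totals. The cause of these shifts was not tested. Depth limits the 24 members under 50 counts, for which no ratio is given.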
